A study of Macaca fascicularis with 64 samples.

Results

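The levels of 10 genes of the neutrophil were followed through the tissues of cynomolgus monkeys (Macaca fascicularis): S100A8, S100A9, S100A12, MPO, ELANE, LTF, LCN2, CAMP, CSF3R and MMP8. They were chosen by name, with earlier results of these data known. All 10 were found among the 28141 genes of both deposited tables. RNA sequencing had been carried out on newborns labelled as SIRT6 mutant (KO2 and KO3) and on wild-type newborns (WT2 and WT3), in 7 tissues with 2 repeat libraries per animal and tissue. SIRT6 encodes a chromatin deacetylase, and the sources used here do not say how the mutation was made. The fetal libraries were wild type throughout, of brain and muscle at gestation month 2 or month 4, with 2 libraries per month and tissue. Each genotype thus rests on 2 animals, and ages within the newborn stage are not given in the labels.

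Neutrophils are short-lived white blood cells that form in blood-making tissue from granulocyte precursors and store antimicrobial proteins in granules. The granules are filled in order: the early azurophil granules take MPO (myeloperoxidase) and ELANE (neutrophil elastase), and the later specific and gelatinase granules take LTF (lactoferrin, which binds iron), LCN2 (which binds iron-carrying siderophores), CAMP (the cathelicidin antimicrobial peptide) and MMP8 (a collagenase). S100A8 and S100A9 pair as calprotectin in the cytoplasm, S100A12 is a related calcium-binding protein, and CSF3R is the receptor for the granulocyte growth factor G-CSF. Granule transcripts belong mostly to maturing cells, while the receptor is kept on mature ones. Before and around birth the liver is a blood-forming organ. Several of these genes are not private to neutrophils: S100A8 and S100A9 are made by monocytes and stressed squamous epithelium, and LCN2 by injured or inflamed epithelium.

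Levels are FPKM, fragments scaled by transcript length and library size, given as the mean of the 2 libraries of an animal. The 3 marker genes of each tissue (2 in lung) summed to more in that tissue than in any other tissue of any animal. Some were also found elsewhere: brain markers summed to 203 FPKM in the muscle of KO3, beside 10.7 in KO2 and 21.8 and 22.8 in WT. In brain, muscle markers summed to 51.3 and 85.2 FPKM in KO beside 5.49 and 5.88 in WT. Liver markers summed to 110 FPKM in the brain of KO2, beside 2.14 in KO3 and 1.16 and 0.671 in WT. The part of such RNA in the values here was not tested. Repeat libraries of an animal correlated at 0.993 to 0.996 over all genes. SIRT6, the targeted gene, stood at 3.07 to 12.4 FPKM in KO and 6.18 to 12.4 in WT with no call in any of the 7 tissues (limma adjusted p = 0.54 in kidney to 0.94 in lung), so its level is no check of the genotype labels. HBB (adult beta globin) was lower in both KO animals than in both WT animals in each tissue apart from lung, where KO3 held 2888 FPKM beside 2675 and 2960 in WT and 291 in KO2, and HBZ (embryonic zeta globin) was higher in both KO animals in all 7. Bulk tissue cannot tell fewer neutrophils from less RNA per neutrophil, and this holds for each result here.

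In the newborn, thymus, liver and lung held the 3 highest medians over the 4 animals for 9 of the 10 genes, and for ELANE muscle (2.78 FPKM) lay just above lung (2.73). Thymus was first for 8 of the 10 genes, and lung was first for LCN2 and CSF3R. Brain was last for 9. For S100A12 heart and brain both had a median of 0, and all brain libraries listed it at 0. Of the genes with a mean of 1 FPKM or more over the newborn libraries, 9 of 9 differed in level between tissues (limma F test within animals, adjusted p = 1.08e-10 for ELANE to 3.64e-06 for CSF3R), beside 96.1% of all genes tested, so this says little that is particular to them. MMP8 was under that level.

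S100A8 and S100A9, the calprotectin pair, were the 2 genes of the 10 with the highest FPKM in all 28 animal and tissue values. S100A8 stood at 454 to 2510 FPKM in thymus (median 665), 199 to 515 in lung (272) and 58.8 to 680 in liver (272). It fell to 8.11 to 163 in muscle, 9.02 to 99.5 in heart, 10.2 to 76.2 in kidney and 4.00 to 8.57 in brain. Each tissue overlapped the next in this order over the 4 animals, except that kidney lay above brain. S100A9 ran from 414 to 2136 FPKM in thymus down to 4.42 to 8.35 in brain, with the same gap between kidney and brain. S100A12 was far lower, at 5.83 to 84.9 FPKM in thymus, 0.494 to 12.3 in liver and 1.38 to 4.83 in lung, and listed at 0 in at least 1 animal of each other tissue.

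The azurophil genes were highest in thymus and next in liver. ELANE, the elastase, stood at 96.9 to 533 FPKM in thymus, above its 7.02 to 50.1 in liver without overlap. MPO, the peroxidase, stood at 31.2 to 125 FPKM in thymus and 3.11 to 44.2 in liver, and liver lay above the 0.769 to 1.76 of lung without overlap. In heart and kidney MPO reached 0.867 FPKM at most in any animal. Lung and liver had like medians of S100A8, but lung held little MPO: 0.258 to 0.733% of the S100A8 level, against 4.45 to 6.86% in thymus and 2.53 to 10.01% in liver.

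Of the specific granule genes, LTF (24.8 to 150 FPKM) and CAMP (79.0 to 385) were highest in thymus, then liver (2.11 to 38.2 and 6.38 to 110) and lung (5.81 to 51.5 and 17.0 to 57.3), with overlap between these neighbours. LCN2 was ordered differently, with 18.6 to 262 FPKM in lung, 16.2 to 67.0 in thymus and 9.01 to 34.0 in liver, and liver lay above kidney (0.355 to 4.13) without overlap. MMP8 reached 2.42 FPKM at most, in thymus. CSF3R, the G-CSF receptor, stood at 6.56 to 43.9 FPKM in lung and 4.22 to 40.6 in liver. In thymus, where the granule genes other than LCN2 peaked, CSF3R stood at only 2.94 to 16.8 FPKM. It overlapped between every pair of neighbouring tissues.

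**Figure D1:**
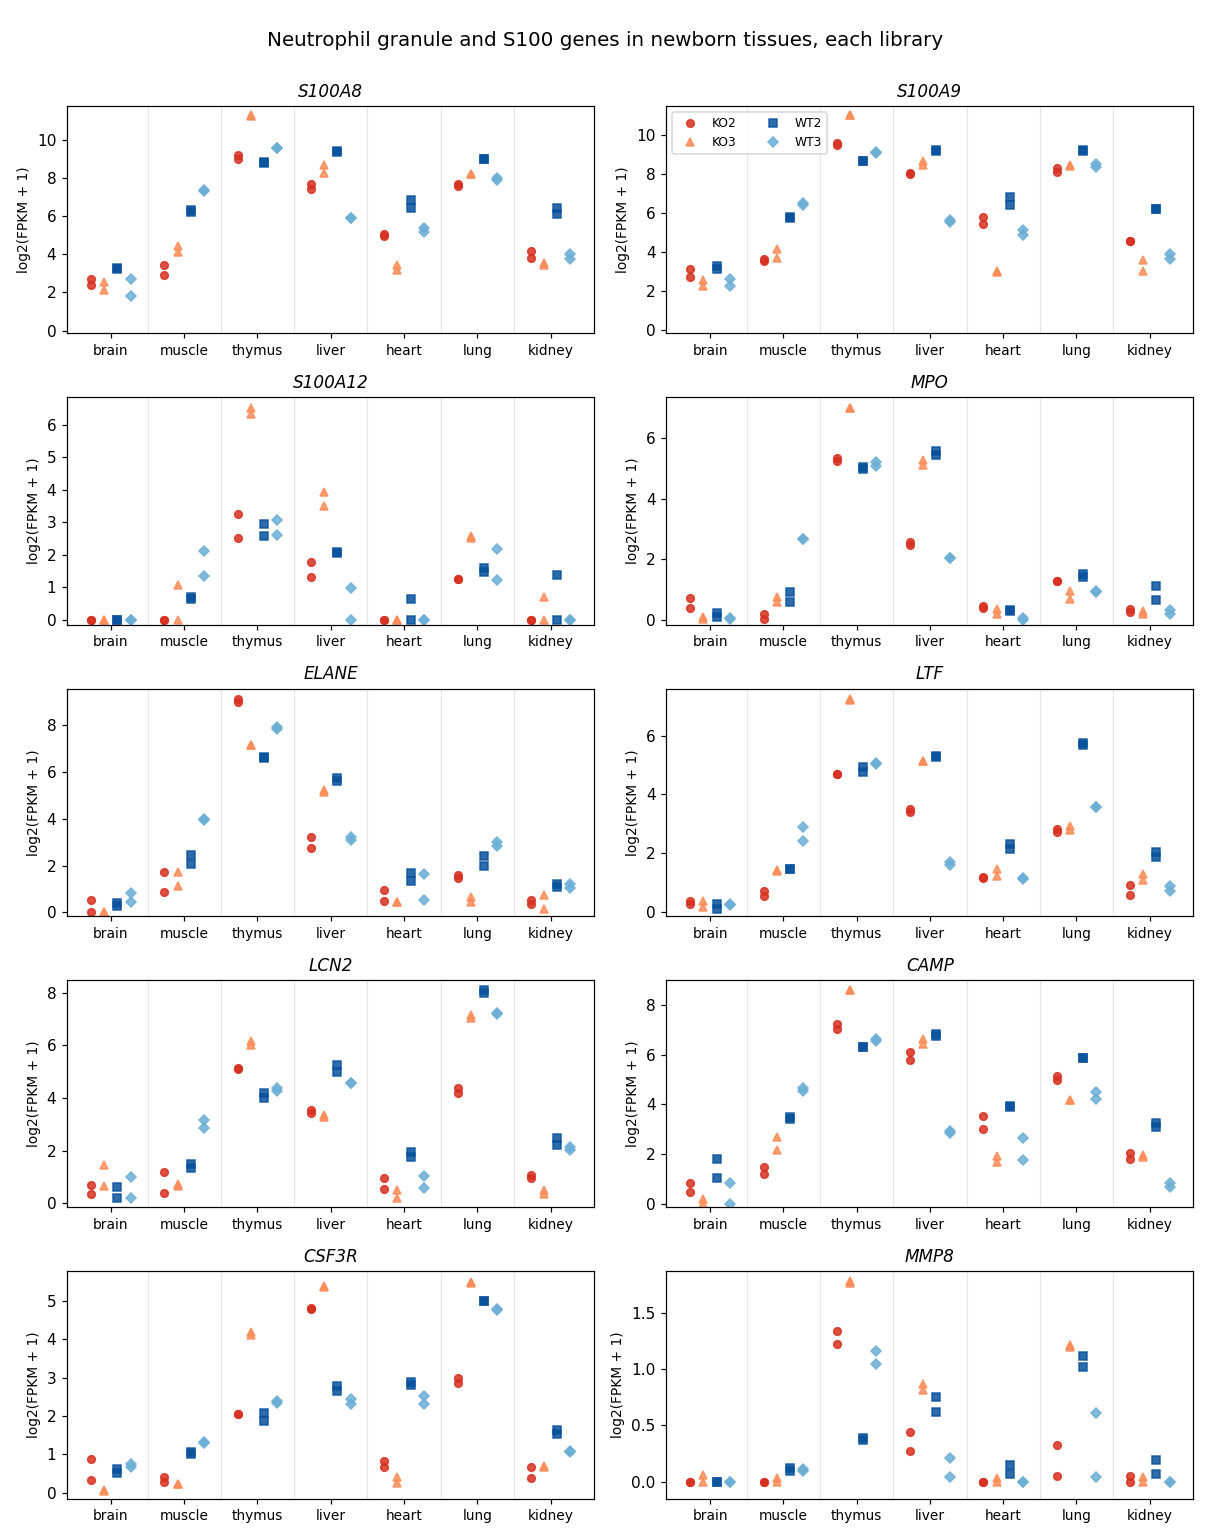
Level of each of the 10 genes in every newborn library, as log2(FPKM + 1), by tissue; each point is 1 library and colours and shapes mark the 4 animals. Points of 1 animal lie close together, while animals of 1 genotype can lie far apart, as WT2 and WT3 do in liver.

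Animals differed more than repeat libraries. Over the 70 gene and tissue pairs, the largest difference between repeats of an animal had a median of 0.31 on the log2(FPKM + 1) scale, while the difference between KO2 and KO3 had a median of 0.55 and reached 3.53, and that between WT2 and WT3 had a median of 0.73 and reached 3.91. Liver was the extreme: WT2 held 680 FPKM of S100A8 and WT3 58.8, an 11.6-fold gap between wild types. The same pair differed 18.1-fold in LTF, 17.2-fold in CAMP and 14.2-fold in MPO, but 1.47-fold in LCN2 and 1.33-fold in CSF3R. In thymus it was KO3 that stood apart, with 2510 FPKM of S100A8 beside 555 in KO2 and 454 and 774 in WT.

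Taken relative to S100A8, the genes split by tissue and by animal. CSF3R stood at 0.537 to 0.670% of S100A8 in the thymus of all 4 animals, a narrow band, and at 3.30 to 14.8% in lung. In liver it was 14.4 and 11.4% in KO2 and KO3 but 0.824% in WT2 and 7.18% in WT3. LCN2 stood at 45.8 to 59.0% of S100A8 in the lungs of KO3, WT2 and WT3 and at 9.38% in KO2. ELANE reached 95.9% of S100A8 in the thymus of KO2, where KO3 held 5.57% and the WT animals 21.3 and 30.3%. The S100A9 level lay near that of S100A8, from 54.7 to 157% over the 28 animal and tissue values, with 14 of them under 100%.

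**Figure D2:**
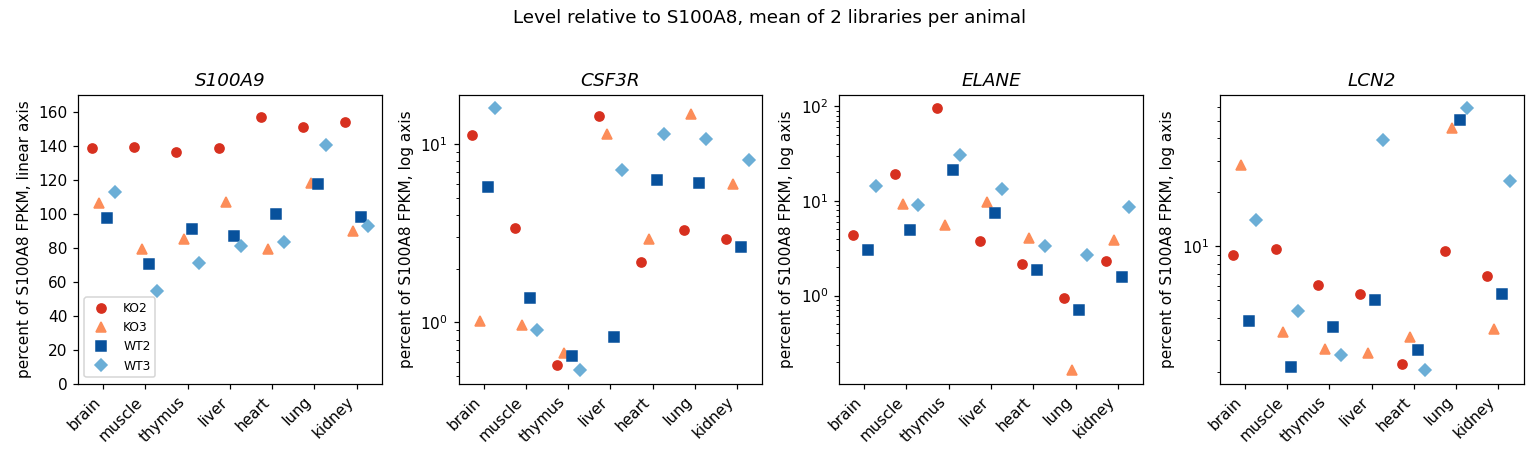
Level of S100A9, CSF3R, ELANE and LCN2 as a percent of the S100A8 level, by tissue and animal (mean of 2 libraries; linear axis for S100A9, log axis for the others; ELANE in the brain of KO3, listed at 0, is not drawn). KO2 lies highest for S100A9 in each tissue, and CSF3R forms a tight group in thymus and a spread one in liver.

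Across the 28 animal and tissue values the genes fell into overlapping groups by Pearson's r of log2(FPKM + 1). These values share animals and tissues, so r is a description. S100A8 and S100A9 were closest to each other (r = 0.989) and then to CAMP (0.968 and 0.964) and LTF (0.944 and 0.935). MPO was closest not to a calgranulin but to the azurophil genes CTSG (0.991), BPI (0.989) and PRTN3 (0.988), and ELANE to PRTN3 (0.958), CTSG (0.954) and MPO (0.941). S100A12 was nearest to SERPINB10 (0.913), LTF (0.8995) and MS4A3 (0.898).

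LCN2 and CSF3R had other neighbours. LCN2 was closest to MEFV (0.927), HK3 (0.920) and FCAR (0.912), the last an Fc receptor of myeloid cells for IgA. CSF3R was closest to MEFV (0.864), which encodes pyrin, then NFAM1 (0.861) and the Fc receptor FCGR2B (0.851). Its r was 0.449 with MPO and 0.380 with ELANE, the lowest among the pairs of the 9 genes.

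**Figure D3:**
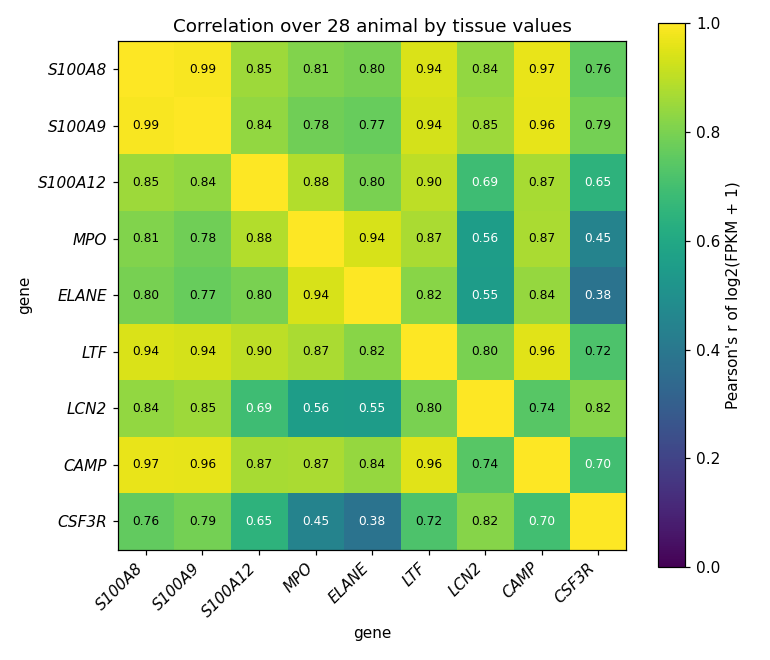
Pearson's r of log2(FPKM + 1) between 9 of the genes over 28 animal and tissue values; each cell is 1 pair and the colour gives r (MMP8, under 1 FPKM on average, is left out). CSF3R and LCN2 have their lowest r with MPO and ELANE.

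KO was compared with WT in each tissue, which asks whether the neutrophil signal differs with the SIRT6 mutation. A log2 change is the limma estimate on log2(FPKM + 1) with its standard error (SE), from n = 2 KO and 2 WT animals, less the median change of all genes tested in that tissue, since that median reached −0.21 in thymus. The adjusted p is Benjamini-Hochberg over all genes tested, with a threshold of 0.05, and tests the change before the subtraction. An exact permutation test of 2 against 2 cannot go below p = 0.33. A gene was tested where its mean was 1 FPKM or more, so one that reaches 1 FPKM through the higher genotype had to differ.

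Muscle had the most calls. S100A8, S100A9 and CAMP were lower in KO, 3 of the 7 genes tested there, beside 2.32% of all genes called in either direction. The S100A8 libraries read 6.47 and 9.74 FPKM in KO2, 16.7 and 20.3 in KO3, 74.6 and 80.8 in WT2, and 160 and 166 in WT3. No KO library reached a WT library, and the log2 change was −3.10 (SE 0.50, limma adjusted p = 0.000837). S100A9 stood at 11.3 and 14.7 FPKM in KO beside 54.8 and 88.9 in WT (log2 change −2.36, SE 0.47, limma adjusted p = 0.00649). CAMP stood at 1.52 and 4.50 FPKM against 9.87 and 23.1 (−2.13, SE 0.53, limma adjusted p = 0.0291). WT3 was the highest animal for 9 of the 10 genes in muscle.

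The other muscle values lay on the same side without passing. ELANE read 1.57 and 1.72 FPKM in KO beside 3.85 and 14.7 in WT (limma adjusted p = 0.0884), and LTF 0.536 and 1.65 against 1.74 and 5.38 (0.35). LCN2 read 0.784 and 0.619 FPKM against 1.66 and 7.09 (0.14), and MPO 0.0914 and 0.596 against 0.713 and 5.35 (0.209). LCN2 and MPO reached 1 FPKM through WT alone. CSF3R (0.273 and 0.180 against 1.07 and 1.48 FPKM), S100A12 and MMP8 were too low to test. All KO libraries lay below all WT libraries for 6 of the 7 tested genes, MPO being the exception, beside 15.4% of all genes, and LCN2 among the 6 had to differ. Without KO2 none of the 7 passed, and without WT3 S100A8 alone did (limma adjusted p = 0.0498). Without WT2 S100A8, S100A9 and MPO passed, and CAMP did not (0.0556). CAMP also missed the threshold when single libraries were fitted with those of an animal treated as correlated (0.143). Quantile normalisation or no level filter left 0.

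Among related genes of muscle, AZU1 was the 1 azurophil gene of 3 tested to pass, at −2.25 (limma adjusted p = 0.023). Of 8 other specific and gelatinase granule genes tested 0 passed, with 2 changes above 0 and 6 below (median −0.40). That list summed to 139 and 155 FPKM in KO beside 196 and 124 in WT, so the genotypes overlapped. The transcription factors CEBPD and CEBPB, which act in granulocytes and also in acute stress responses, fell by 2.66 and 2.42 (adjusted p = 0.00084 and 0.005), 2 of 6 tested. The 6 as a list were split, with 3 changes above 0 and 3 below (median −0.11). CSF3, which encodes G-CSF itself, fell by 1.91 (adjusted p = 0.023), 1 of 2 neutrophil recruitment genes tested. Of 6 mature neutrophil receptors tested 0 passed (median −0.74, 2 with an unadjusted p under 0.05). Their summed level was 5.48 and 12.2 FPKM in KO beside 24.6 and 20.5 in WT.

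Markers of other cells moved in both directions in the same muscle samples. C1QA, C1QB and C1QC, complement genes of tissue macrophages, fell by 2.43 to 2.63 (adjusted p = 0.035, 0.0098 and 0.014), 3 of 11 macrophage genes tested. Of the 11, 10 had a change below 0 and 1 above (median −1.52, 6 with an unadjusted p under 0.05). The 14 macrophage genes summed to 10.9 and 58.4 FPKM in KO beside 119 and 62.4 in WT, with none at 0. HBB fell by 3.29 and HBZ rose by 3.80, the 2 red-cell genes of 8 tested to pass. Of the 8, 6 had a change above 0 (median 0.58), although the 12 red-cell genes in the table summed to 122 and 241 FPKM against 1088 and 1139, mostly HBB. Of 2 genes tested from the platelet list GP1BB rose by 2.19 (adjusted p = 0.014) and ITGB3 was at 1.27 (0.16). The list summed to 36.5 and 34.8 FPKM in KO beside 11.4 and 6.06 in WT, with none at 0. The same list summed to more in brain, at 172 to 266 FPKM, and the source of its muscle values was not tested.

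The markers of muscle itself were lower in the same KO samples. ACTA1, skeletal actin, fell by 1.53 (limma adjusted p = 0.0023), while MYH2 (−1.11, 0.14) and CKM (−0.69, 0.19) did not pass. The 3 summed to 28809 and 18429 FPKM in KO beside 59019 and 52387 in WT. The part of macrophages, blood content or muscle makeup in the granule values was not tested.

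**Figure D4:**
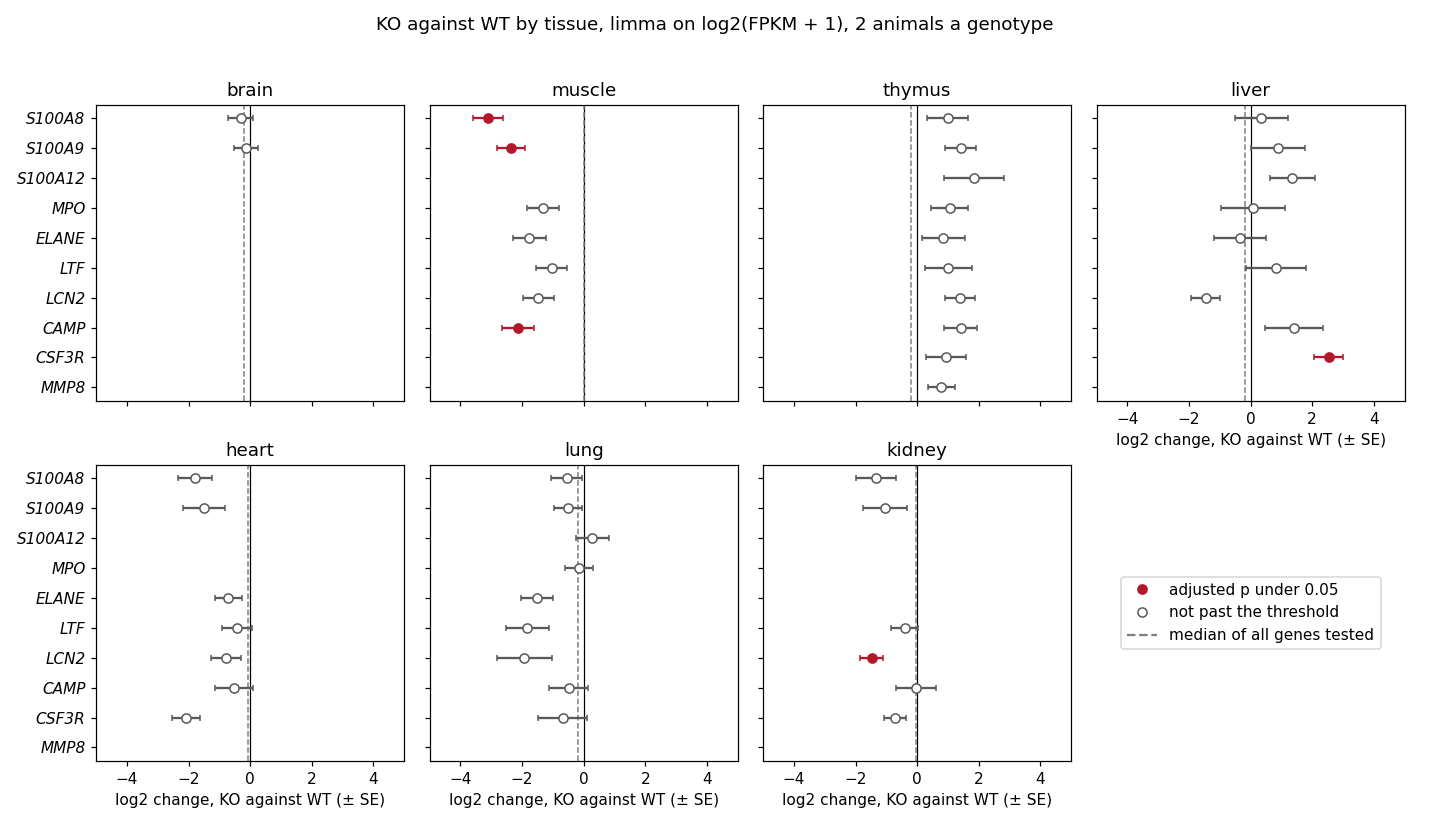
Log2 change of KO against WT for each tested gene by tissue, as limma estimates before subtraction of the median; bars are ± SE from 2 animals a genotype, filled red points passed the threshold, and the dashed line is the median of all genes tested. Muscle changes lie left of 0, thymus changes right of 0, and liver changes on both sides.

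In thymus all 10 genes were tested and 0 passed, beside 0.00772% of all genes, which is 1 gene. Of the 10, 3 had an unadjusted p under 0.05 (S100A9, LCN2 and CAMP), as had 767 of all 12961 genes. KO3 was the highest animal for 9 of the 10. S100A12 showed it most: 79.4 and 90.4 FPKM in the libraries of KO3, beside 4.75 and 8.54 in KO2 and 4.93 to 7.36 in WT. The log2 change was 2.06 (SE 0.98, limma adjusted p = 0.7). MPO stood at 125 FPKM in KO3 beside 38.1 in KO2 and 31.2 and 34.4 in WT, and LTF at 150 beside 24.8, 27.8 and 32.3.

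ELANE was the exception, highest in KO2. It read 513 and 552 FPKM there, beside 139 and 140 in KO3, 96.1 and 97.7 in WT2 and 230 and 239 in WT3. MPO per ELANE was therefore 0.0715 in KO2 and 0.891 in KO3, with 0.322 and 0.147 in WT. All KO libraries lay above all WT libraries for 5 of the 10 (S100A9, MPO, LCN2, CAMP and MMP8), beside 9.81% of all genes, and MMP8 among them reached 1 FPKM through KO alone. LCN2 read 33.9 and 67.0 FPKM in KO beside 16.2 and 19.3 in WT (1.59, SE 0.49, limma adjusted p = 0.7). MMP8 read 1.43 and 2.42 FPKM against 0.302 and 1.15. Without KO3 the estimates of S100A8, LTF and CSF3R turned below 0, and without KO2 S100A12 passed (limma adjusted p = 0.0259).

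Other lists in thymus gave 0 calls as well. The 8 azurophil genes summed to 180 and 390 FPKM in KO beside 161 and 166 in WT. The mature neutrophil receptors took another order, with 83.6 FPKM in KO2, the lowest, 458 in KO3, and 184 and 276 in WT. Squamous and airway epithelial genes summed to 499 and 229 FPKM in KO beside 100 and 106 in WT. KRT13 and KRT14, keratins of stratified epithelium, were at 2.79 and 2.94 (limma adjusted p = 0.6 and 0.69). Lymphocyte genes summed to 892 and 1934 FPKM against 1785 and 2511, and none of these lists had a member at 0 throughout. Their part in the calgranulin and granule values was not tested.

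In liver 1 of 9 tested genes passed, CSF3R, and it was higher in KO, beside 1.10% of all genes called. The libraries read 26.9 and 27.3 FPKM in KO2, 40.7 and 40.6 in KO3, 5.86 and 5.33 in WT2, and 3.99 and 4.45 in WT3. Every KO library was above every WT library, a placing shared by 11.4% of all genes, and the log2 change was 2.74 (SE 0.47, limma adjusted p = 0.0325). It missed the threshold without KO2 (0.0996), KO3 (0.0811) or WT3 (0.0959), with quantile normalisation (0.0624) and with no level filter (0.4).

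The granule genes of liver gave no call. WT2 was the highest animal for 7 of the 10 and WT3 the lowest for 8. Both KO animals lay between them for S100A8, S100A9, MPO, LTF and CAMP. S100A8 stood at 188 and 356 FPKM in KO beside 680 and 58.8 in WT, MPO at 4.74 and 35.6 against 44.2 and 3.11, and LTF at 9.91 and 34.4 against 38.2 and 2.11. S100A12 was highest in KO3, at 12.3 FPKM beside 3.19 in WT2, and ELANE lowest in KO2, at 7.02 beside 7.92 in WT3. LCN2 was lower in KO, at 10.2 and 9.01 FPKM in KO beside 34.0 and 23.1 in WT. All its KO libraries were below all WT libraries, as for 25.0% of all genes (−1.26, SE 0.46, limma adjusted p = 0.176). Leaving out WT2 gave 5 calls, all higher in KO (S100A8, S100A9, LTF, CAMP and CSF3R), and leaving out WT3 turned the estimates of S100A8, S100A9, MPO, LTF and CAMP below 0. The direction of S100A8, S100A9, MPO, LTF and CAMP in liver therefore rests on which wild-type animal is kept. LCN2 lay below both wild-type animals in KO2 and in KO3.

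Beside the higher CSF3R of KO liver, macrophage genes were lower: 14 of 14 tested had a change under 0 before subtraction, with a median of −2.66 after it, and 2 passed. These were MARCO (−4.04, limma adjusted p = 0.025) and CD163 (−3.43, 0.045), scavenger receptors of macrophages. The list summed to 71.9 and 340 FPKM in KO beside 1253 and 1163 in WT, with no gene at 0. Of 15 mature neutrophil receptors 0 passed (median −0.44, 5 with an unadjusted p under 0.05). FCGR3A, an Fc receptor for IgG, was at −2.15 (limma adjusted p = 0.12). Of 16 specific and gelatinase granule genes HP passed, at −3.63 (0.009); haptoglobin is also a plasma protein made by hepatocytes. SERPINA3, an inhibitor of the neutrophil protease cathepsin G that the liver secretes, fell by 2.69 (0.0063). It was the 1 of 11 tested genes to pass in a list of receptors and inhibitors of calgranulins and granule proteins. That list had 3 changes above 0 and 8 below (median −0.04).

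Red-cell genes of KO liver were mostly higher: 11 of 12 tested had a change above 0, with a median of 2.33 after subtraction, and all 12 had an unadjusted p under 0.05. HBZ rose by 6.43 (limma adjusted p = 0.00057) and AHSP, the alpha globin chaperone, by 3.51 (0.011), while HBB fell by 2.39 (0.012), and these 3 passed. The 12 summed to 1772 and 2565 FPKM in KO beside 4444 and 3269 in WT. Globin genes resemble one another, so the split of reads between them is uncertain.

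In heart 0 of 7 tested genes passed, beside 0.180% of all genes, and 3 had an unadjusted p under 0.05 (S100A8, S100A9 and CSF3R), as had 1128 of all 12256 genes. CSF3R came closest, at 0.677 and 0.265 FPKM in KO beside 6.22 and 4.35 in WT (−2.04, SE 0.46, limma adjusted p = 0.105), and it reached 1 FPKM through WT alone. S100A8 read 31.2 and 9.02 FPKM against 99.5 and 38.1 (−1.74, SE 0.55, 0.284). For these 2 genes all KO libraries lay below all WT libraries, as for 10.5% of all genes. WT2 was the highest animal for 9 of the 10. Without WT3 S100A8 and S100A9 passed.

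All 12 mature neutrophil receptors tested in heart had a change under 0 before subtraction, with a median of −0.96 after it, and 0 passed (6 with an unadjusted p under 0.05). FGR, a myeloid kinase, was at −1.77 (limma adjusted p = 0.16) and NCF4, a subunit of the oxidase, at −1.43 (0.3). They summed to 14.2 and 15.2 FPKM in KO beside 53.8 and 38.4 in WT. Macrophage genes summed to 37.2 and 78.0 FPKM against 209 and 147, with none at 0. Red-cell genes summed to 954 and 307 FPKM against 3558 and 5503, with HBB at −3.69 (limma adjusted p = 0.025), while 9 of the 11 tested had a change above 0 (median 0.67 after subtraction) and HBZ rose by 3.87 (0.0085). Their part was not tested.

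In lung 0 of 9 tested genes passed, as for all genes (0%; 963 genes and 2 of the 9, ELANE and LTF, had an unadjusted p under 0.05). LCN2 read 17.3 and 20.0 FPKM in KO2, 130 and 142 in KO3, 251 and 273 in WT2, and 147 and 144 in WT3. KO2 was the animal that stood apart, and the change was −1.75 (SE 0.88, limma adjusted p = 0.708). CSF3R showed the same animal low, at 6.56 FPKM in KO2 beside 43.9 in KO3 and 31.1 and 26.3 in WT. LTF stood at 5.81 and 6.26 FPKM in KO beside 51.5 and 10.8 in WT, and ELANE at 1.87 and 0.480 against 3.59 and 6.57. All KO libraries lay below all WT libraries for LCN2, LTF and ELANE, 3 of 9, beside 20.6% of all genes. Without KO3 LCN2 passed (limma adjusted p = 0.00649).

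S100A8 and S100A9 differed less between lungs, at 199 and 298 FPKM in KO beside 515 and 247 for S100A8, and 300.4 and 352 against 606 and 348 for S100A9. The mature neutrophil receptors summed to 87.3 FPKM in KO2 and 408 in KO3 beside 241 and 263 in WT. Genes of neutrophil recruitment summed to 127 FPKM in KO2 and 867 in KO3, beside 279 and 82.0. CXCL1, which draws neutrophils, was at 3.93 (limma adjusted p = 0.17). The airway and squamous genes summed to 152 and 277 FPKM in KO beside 764 and 582 in WT, with none at 0 throughout, and LCN2 is also made by airway epithelium. SFTPC and SFTPB, surfactant genes of the alveolar epithelium, summed to 1525 and 1089 FPKM in KO beside 17437 and 17666 in WT (log2 changes −4.77 and −2.56, limma adjusted p = 0.26 and 0.39). Their part in the LCN2 values was not tested.

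In kidney 1 of 6 tested genes passed, LCN2, and it was lower in KO, beside 5.78% of all genes. The libraries read 1.08 and 0.972 FPKM in KO2, 0.426 and 0.284 in KO3, 3.64 and 4.61 in WT2, and 3.35 and 3.02 in WT3. The change was −1.44 (SE 0.36, limma adjusted p = 0.0478). LCN2 reached 1 FPKM through WT alone and so had to differ. It missed the threshold without KO3, WT2 or WT3 and under 5 of the 7 other settings that tested it (0.0510 to 0.192), and without WT3 S100A8 passed. CSF3R read 0.442 and 0.611 FPKM in KO beside 2.00 and 1.13 in WT (−0.69, SE 0.35, 0.276). For LCN2 and CSF3R all KO libraries lay below all WT libraries, as for 23.7% of all genes, and CSF3R too reached 1 FPKM through WT alone. S100A8 was high in 1 animal, with 76.2 FPKM in WT2 beside 13.8 in WT3 and 15.03 and 10.2 in KO. WT2 was the highest animal for all 10.

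Related genes of kidney went in both directions, in a tissue where 664 of the 806 genes called were lower. LRG1, a granule and plasma glycoprotein, fell by 3.89 (limma adjusted p = 0.0021), and SERPINA3 and SERPINA1, the latter the main plasma inhibitor of elastase, were lower at −2.62 (0.01) and −1.80 (0.011). ITGB2, the shared beta chain of the leukocyte integrins, rose by 1.37 (0.042), 1 of 10 receptors tested. Kidney markers of the tubule, UMOD and SLC34A1, fell by 3.80 and 2.15 (0.0027 and 0.0055), and their part in the LCN2 value was not tested.

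In brain S100A8 and S100A9 alone reached 1 FPKM, and 0 of the 2 passed, as for all genes (0%; 1701 genes and neither of the 2 had an unadjusted p under 0.05). S100A8 stood at 4.92 and 4.15 FPKM in KO beside 8.57 and 4.00 in WT, and S100A9 at 6.84 and 4.42 against 8.35 and 4.51. The genotypes overlapped. The other 8 genes stood at 1.75 FPKM or less in every animal.

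With each animal averaged over its 7 tissues, 0 of 9 genes passed, beside 0.492% of all genes, and S100A8, ELANE and LCN2 had an unadjusted p under 0.05, as had 2003 of all 15038 genes. S100A8 was at −0.71 (SE 0.33, limma adjusted p = 0.325) and LCN2 at −0.66 (SE 0.30, 0.306). The KO change itself was compared between tissues with an F test that keeps each animal's tissues together. It passed for CSF3R (limma adjusted p = 0.0168), 1 of 9 genes, beside 5.73% of all genes. Its change ran from 2.74 in liver to −2.04 in heart. Leaving out WT2 or WT3 ended the call (0.6 and 0.63). LCN2 came next (0.125), with changes of 1.59 in thymus and −1.75 in lung.

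In the fetal libraries, month 4 was compared with month 2, and the 2 libraries of a month may come from 1 fetus, so the p-values measure the spread between libraries. In muscle S100A8 and S100A9 were lower at month 4, and they were the 2 of the 10 genes that could be tested, beside 37.9% of all genes called. S100A8 read 3.66 and 7.94 FPKM at month 2 and 0.531 and 1.22 at month 4 (−1.97, SE 0.33, limma adjusted p = 0.00247). S100A9 read 2.23 and 2.18 FPKM and then 0.183 and 0.903 (−1.26, SE 0.29, 0.0144). Both reached 1 FPKM through month 2 alone and had to differ, and without either library of month 2 S100A9 missed the threshold. MPO read 1.29 and 1.60 FPKM at month 2 and 0.317 and 0.35 at month 4, while ELANE read 0 and 0.227 and then 0.642 and 1.17, and neither was tested. Of 12 macrophage genes 5 fell in the same libraries, with C1QA at −1.73 (0.00018). The liver markers ALB, APOA1 and TTR, which encode plasma proteins, fell by 3.81, 3.17 and 3.29 (limma adjusted p = 0.00089, 0.0001 and 0.00045), and TNNT2, a heart marker that early skeletal muscle also makes, fell by 6.08 (5.7e-08). The 3 muscle markers rose, with MYH2 at 7.38 (5.7e-08). The part of these in the S100A8 and S100A9 values was not tested.

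In fetal brain none of the 10 reached 1 FPKM, so 0 were tested, beside 4.01% of all genes called. S100A8 was listed at 0 in 3 of the 4 libraries and at 0.685 FPKM in the other. S100A12 and MMP8 were listed at 0 in all 8 fetal libraries of both tissues.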

How the data were processed

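The authors deposited FPKM values, 1 table for 56 newborn and 1 for 8 fetal libraries; per the submitters' processing notes CASAVA, HISAT 0.1.6 and Cufflinks 2.0.2 were used. No source used here names the genome build or strand setting. RNA was prepared with TruSeq kits from ground tissue, per the labels' protocols. FPKM keeps no absolute depth and the number of reads is unknown. Steps among values under 0.1 FPKM placed 50 of 56 newborn libraries at 0.727 to 1.65 times the median depth.

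The 2 libraries of an animal were averaged as log2(FPKM + 1). Genes with a mean of 1 FPKM or more were fitted with limma 3.58.1 in R 4.3.3 (lmFit, eBayes with a trend), with a threshold of 0.05 and Benjamini-Hochberg adjustment; fits were tested on simulated data. Whether repeat libraries are separate tissue pieces is not stated. Animal numbers are names and pair no animals. The members and gene lists were chosen with earlier results of these data known. Named genes were the 10 members, SIRT6, up to 4 genes per list past the threshold (otherwise up to 2 with the smallest p), the 3 most correlated genes of each member, HBB, HBZ and tissue markers. Of 11294 LOC identifiers 721 got a RefSeq symbol (T2T-MFA8v1.1, names only). No sequence or coordinate is printed.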

Additional observations from a re-analysis of the deposited data

Results flagged for a closer look

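CSF3R, the G-CSF receptor, had a KO change that differed between tissues by the test of the difference itself (limma F test, adjusted p = 0.0168), with a change of 2.74 in liver and −2.04 in heart. The same test called 5.73% of all genes, and leaving out WT2 or WT3 ended the call of CSF3R. In heart alone CSF3R did not pass (limma adjusted p = 0.105), and it reached 1 FPKM there through WT alone. LTF in KO heart was the 1 group of 95 in which a library stood apart from the other 3: a KO3 library read 1.77 FPKM beside 1.23 to 1.29 in the others. The gap rule passes about 1 in 20 groups by chance where the 4 values are independent. Here they are 2 repeat libraries of each of 2 animals, so that rate does not apply.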

How the results depend on the processing

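Values here are counts of the 10 genes past the threshold, or log2 changes before subtraction of the median, and leaving out an animal assumes that the one left varies like the others. Counts went from 3 to 0 in muscle and from 1 to 0 in liver and in kidney with no level filter or quantile normalisation. Kidney also went to 0 with a pseudocount of 0.1 or either repeat library alone. Fetal muscle went from 2 to 1 with no filter. A filter at 5 FPKM left LCN2 in kidney untested (mean 2.17 FPKM), and likewise S100A8 (3.34) and S100A9 (1.37) in fetal muscle. The count of 0 at that filter was thus fixed in advance for these genes. The animal number as a replicate block gave 2 calls in heart in place of 0 (S100A8, adjusted p = 0.00962; CSF3R, 0.00799) and changed no other count of the 10; same-numbered animals correlated at −0.097 to 0.090, so the block reflects no known pairing. With 1 animal or library left out, counts were 0 to 3 in muscle, 0 to 1 in thymus, 0 to 5 in liver, 0 to 2 in heart, 0 to 1 in lung, 0 to 1 in kidney, 0 to 2 for the difference between tissues and 1 to 2 in fetal muscle.

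Under other settings single estimates turned sign for S100A9 in brain (0.10, quantile normalisation), CAMP in kidney (0.20 with a pseudocount of 0.1, 0.043 with the first repeat library), and in the tissue average for MPO (0.053, quantile normalisation) and CAMP (0.019, first library). With an animal left out, estimates turned sign within these ranges: in brain S100A8 −0.81 to 0.20 and S100A9 −0.53 to 0.24; in thymus S100A8 −0.10 to 2.08, ELANE −0.11 to 1.81, LTF −0.26 to 2.29 and CSF3R −0.11 to 1.98. In liver they were S100A8 −1.40 to 2.11, S100A9 −0.91 to 2.70, MPO −1.64 to 1.82, ELANE −1.60 to 0.92, LTF −0.99 to 2.66 and CAMP −0.55 to 3.36. In heart CAMP ran from −1.38 to 0.33 and LTF from −0.96 to 0.11. In lung the ranges were S100A12 −0.36 to 0.93, MPO −0.41 to 0.12, CAMP −1.25 to 0.26 and CSF3R −1.97 to 0.60, and in kidney S100A9 −2.28 to 0.18 and CAMP −1.23 to 1.16. In the tissue average they were S100A9 −1.05 to 0.12, S100A12 −0.25 to 0.88, MPO −0.30 to 0.23, LTF −0.72 to 0.22, CAMP −0.78 to 0.52 and CSF3R −0.48 to 0.14. The cause was not tested.

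Counts over all genes moved by over 1.5 times as follows. With no level filter, a fit that takes in genes of zero variance between animals, 0 passed in every newborn tissue, the tissue average and fetal brain, while 1468 passed for the difference between tissues (861) and 2488 in fetal muscle (4687). Quantile normalisation gave 14 in muscle (281), 19 in liver (134), 0 in heart (22), 7 in the average (74), 2 in lung (0) and 234 in fetal brain (526). A filter at 5 FPKM gave 180 in muscle, 0 in heart, 3 in thymus (1), 444 between tissues, 8860 for level between tissues (14447) and 3012 in fetal muscle, and a pseudocount of 0.1 gave 6 in heart, 0 in thymus and 352 between tissues. Fitting single libraries, with those of an animal treated as correlated, gave 89 in brain (0), 430 in liver, 57 in lung, 1566 in kidney (806) and 9 in thymus. The replicate block gave 226 in heart, 233 in liver, 21 in lung and 0 in thymus; the first repeat library alone gave 0 in thymus and the second 13 in heart.

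Among single genes, 507 of 530 values under other settings and 247 of 309 with an animal or library left out kept direction and side of the threshold. Most of these values belong to genes not called in the main fit, so the share says little about the calls themselves. No KO call in muscle, liver or kidney held with no level filter or with quantile normalisation. Absolute depth is unknown, so a gene listed at 0 has no stated limit of detection.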

Other observations

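The S100A9 to S100A8 ratio set 1 animal apart, a pattern picked after its values were seen and not tested. KO2 had the highest S100A9 level as a percent of S100A8 in 7 of 7 tissues, at 137 to 157%, while KO3 ranged from 79.2 to 118%, WT2 from 70.5 to 118% and WT3 from 54.7 to 141%. In each of these 3 animals lung was the tissue with the highest percent (118, 118 and 141%). In 5 of the 7 tissues both libraries of KO2 lay above all libraries of the other animals. For S100A12 the highest animal was KO3 in 5 of the 6 tissues where it was found, at up to 3.46% of the S100A8 level, and both of its libraries were above all others in 3 of them.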
